A study of Homo sapiens with 2 samples.

Results

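MAP kinase phosphatases of the DUSP family and the Sprouty and Sprouty-related (SPRED) proteins were examined in HepG2 cells treated with hawk tea extract (HTE). The genes were chosen by name, with earlier results of these data known. They were DUSP1, DUSP4, DUSP5, DUSP6, DUSP10, SPRY1, SPRY2, SPRY4, SPRED1 and SPRED2, and their probes were taken by the RefSeq transcript that the array gives for each spot. These 10 genes had 11 probes and 20 spots among the 50599 probes and 58717 spots that are not controls, and among 23752 genes and unnamed transcripts above background. HepG2 is an established human hepatoma line that keeps many functions of hepatocytes. Cells were treated for 24 h with HTE or with its vehicle, dimethyl sulfoxide (DMSO, at 1‰), and total RNA of each was labelled with Cy3 and hybridised to 1 Agilent expression array, both on the same slide. The sample labels give a dose of 200 μg HTE per mL, whereas the deposited name of the HTE array carries the number 300, which is also the microarray dose given in the published description, so the label and the other sources differ.

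With 1 array per group, no test between the groups was possible, no p value is given, and array and treatment cannot be told apart. All values come from 1 cell line. A fall in signal can mean fewer cells that carry a transcript or less of it per cell, and these cannot be told apart in RNA of a whole culture. A level is the log2 processed signal of a probe minus the 75th percentile of its array, and a log2 ratio is the level with HTE minus the level with DMSO. Levels were compared between the arrays for the same probe, not between probes. On the DMSO and HTE arrays 60.6% and 56.6% of spots were well above background, and none was saturated. The measurable error is that of the arrays. Replicate spots of a probe had a log2 ratio with a median SD of 0.05 (95th percentile 0.15). Different probes of a gene had a median SD of 0.16 (95th percentile 0.62). The 13 reference genes spanned log2 ratios from -0.49 (TBP) to 0.43 (GAPDH, -0.65 with scaling to the E1A spike-in RNA). All 9 hepatocyte markers were well above background on both arrays, with ratios from -0.36 (FGB) to 0.21 (SERPINA1, -0.87 with spike-in scaling). Of 7 markers of other cell types, 5 were above background and CD3E and COL1A2 were not, and the median log2 ratio of the 5 was -0.63. PECAM1 (-1.82, and -1.71 at its other probe), VWF (-0.63) and COL1A1 (-0.63) were lower, and CD68 (0.46) was higher. PTPRC was at 0.14 at its brighter probe (-0.03 without scaling) and at -0.88 at the other, so its direction is not settled. With spike-in scaling all 5 were lower. Their summed signal, relative to the 75th percentile of the array, was 1.97 with DMSO and 2.22 with HTE. Without scaling the sums were 7929 and 7934, so the rise appears only after scaling. The part of these markers in the results below was not tested.

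Growth factor receptors signal through RAS, RAF and MEK to the kinase ERK, and stress signals reach the related kinases p38 and JNK. DUSP phosphatases end these signals by removing phosphate from both the threonine and the tyrosine of the activation loop. Sprouty and SPRED proteins act further up, between the receptor and RAF. Many of the genes are themselves induced by ERK or by stress kinases, which closes a negative feedback loop, and several of them are used as transcript readouts of the pathway. In liver cells these proteins bear on growth factor responses, stress signalling and tumour growth.

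The genes did not move as a block. With HTE the log2 ratio at the brightest probe was above 0 in 7 of 10 genes (70%), against 48.3% of all genes with a ratio, and below 0 in 3, with a median of 0.22 against -0.02 over all genes. DUSP10 and DUSP1 were at least 2-fold higher, 2 of 10 genes (20%) against a background of 5.25% of all genes. SPRY1 was at least 2-fold lower, 1 of 10 (10%) against 3.03%. At 1.5-fold 3 members were higher, with DUSP4 added, and 2 lower, with SPRY4 added, against 12.4% and 10.5% of all genes. At 3-fold DUSP10 alone was higher and none was lower, against 1.78% and 0.543%. Among the 5 phosphatases the median log2 ratio was 0.73, with 4 above 0, and among the 3 Sprouty genes it was -0.82, with 1 above 0. These signs depend on how the arrays are scaled, as given below, and the Sprouty median, which is the value of SPRY4, was -0.43 with normexp background correction and -0.52 without the correction for position on the array. With counts this small, and with earlier results known when the genes were chosen, the shares describe these genes only.

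**Figure D1:**
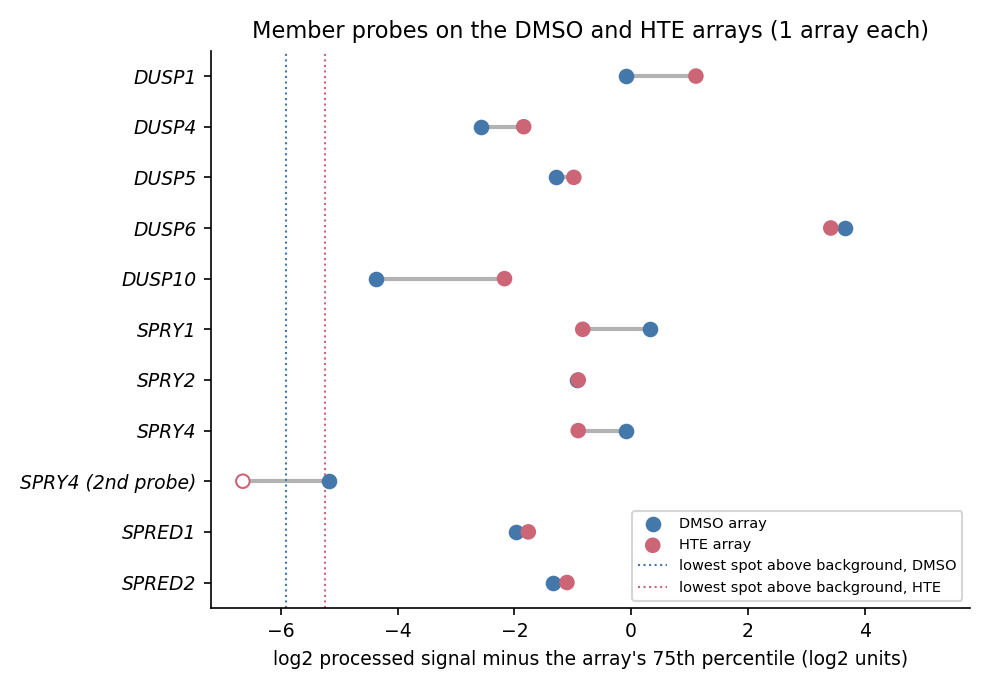
Level of each member probe (log2 processed signal minus the 75th percentile of its array) on the DMSO array (blue) and the HTE array (red), with dotted lines at the lowest spot above background and an open symbol for a spot that was not well above it. The widest shift to higher signal is that of DUSP10 (2.20) and the widest shift to lower signal between spots above background is that of SPRY1 (-1.15), both in the same direction under every scaling tried.

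DUSP1, DUSP4 and DUSP5 are phosphatases of the nucleus. DUSP1 (NM_004417) dephosphorylates p38, JNK and ERK and is an immediate early gene that stress and growth factors induce quickly. It is the only one of the 10 genes with replicate spots, 10 of the same probe spread over the array. On the DMSO array these spots had processed signals from 3589 to 3914, and on the HTE array from 7435 to 7883. The spots of the arrays did not overlap in these unscaled signals. How many other probes with replicate spots separate likewise was not counted. With a median SD over replicate spots of 0.05, a modest shift is enough for it. The mean level was -0.10 with DMSO and 1.11 with HTE, a log2 ratio of 1.20 (2.30-fold higher), and over the 9 spots usable on both arrays the ratio ranged from 1.14 to 1.25 with an SD of 0.03. These spots share 1 RNA sample per array, so the SD covers the hybridisation and not the spread between cultures. One DMSO spot was flagged as an outlier and left out, and with it kept the ratio was 1.21. Among genes above background on both arrays, 2.68% had a higher ratio than DUSP1. Scaling to the spike-in RNA left a ratio of 0.12.

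**Figure D2:**
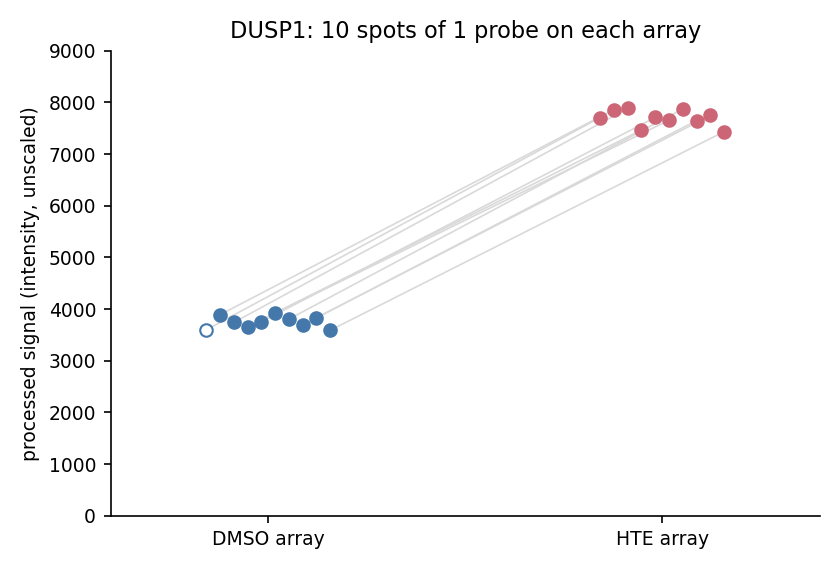
Processed signal (unscaled intensity, linear axis from 0) of the 10 spots of the DUSP1 probe on each array, with a line joining spots at the same position and an open symbol for the spot flagged as an outlier. The DMSO spots lie between 3589 and 3914 and the HTE spots between 7435 and 7883.

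The promoter of DUSP1 is shown because this gene is past 2-fold and known motifs lie close together in it. The sequence is that of RefSeq (GRCh38.p14, minus strand, chr5:172771294-172771323), from 128 to 99 bases before the transcription start. Capitals mark a cyclic AMP response element (CRE, TGACGTCA) and an E-box (CACGTG), which bind CREB or ATF factors and basic helix-loop-helix factors, respectively.
DUSP1: gggTGACGTCAccgccccgtCACGTGatca
Motifs were searched on both strands in windows from 250 bases before to 50 bases after a start, and 13 windows were found for 8 of the 10 genes. Of all 35116 windows, 1.85% held the CRE and 7.26% the E-box, and among the 13 windows only that of DUSP1 held either. The E-box and the CRE do not overlap. A GC box (GGGCGG, here as its complement) lies between them and is not capitalised. A match is a description of the letters and not evidence of binding.

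DUSP4 (NM_001394), an inducible phosphatase that prefers ERK and JNK, had a processed signal of 674.6 with DMSO and 996.2 with HTE at 1 spot each. Its level went from -2.58 to -1.84, a log2 ratio of 0.73 (1.66-fold), which is outside the range of the reference genes and below 2-fold. The error that the scanner software gives for the ratio was 0.21. DUSP5 (NM_004419), which is selective for ERK and anchors it in the nucleus, had signals of 1655 and 1807, levels of -1.28 and -0.98 and a log2 ratio of 0.30, within the range of the reference genes. Both ratios were below 0 with spike-in scaling (-0.35 for DUSP4 and -0.79 for DUSP5).

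DUSP6 (NM_001946) is the cytoplasmic phosphatase selective for ERK and a common readout of ERK activity. Its probe had a processed signal of 51044.8 with DMSO and 38197 with HTE, levels of 3.67 and 3.42. The log2 ratio was -0.25, with a software error of 0.20, and it was below 0 under every scaling and background setting tried, from -0.17 after subtraction of the neighbouring spots to -1.33 with spike-in scaling. It lies within the range of the reference genes. The ratio of DUSP6 and that of DUSP1 differed by 1.45 on the log2 scale, and that difference does not depend on a scaling factor common to all probes.

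DUSP10 (NM_007207) removes phosphate from p38 and JNK and acts little on ERK. It had a processed signal of 194.7 with DMSO and 793.5 with HTE. Both spots were well above background, although the DMSO spot was dim, with a level of -4.37 against -5.91 for the lowest spot so classed. The level with HTE was -2.17 and the log2 ratio 2.20 (4.59-fold higher), with a software error of 0.23, and 0.42% of genes above background on both arrays had a higher ratio. When these genes were divided into 4 equal groups by signal, DUSP10 fell into the dimmest, in which 7.49% were at least 2-fold higher, against 0.914% in the brightest. The ratio depended on the background treatment, as it was 1.67 with normexp correction, and was 1.11 with spike-in scaling. DUSP10 was the only member past 2-fold upward under every alternative in which the cutoff was kept, and the only one past 3-fold.

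**Figure D3:**
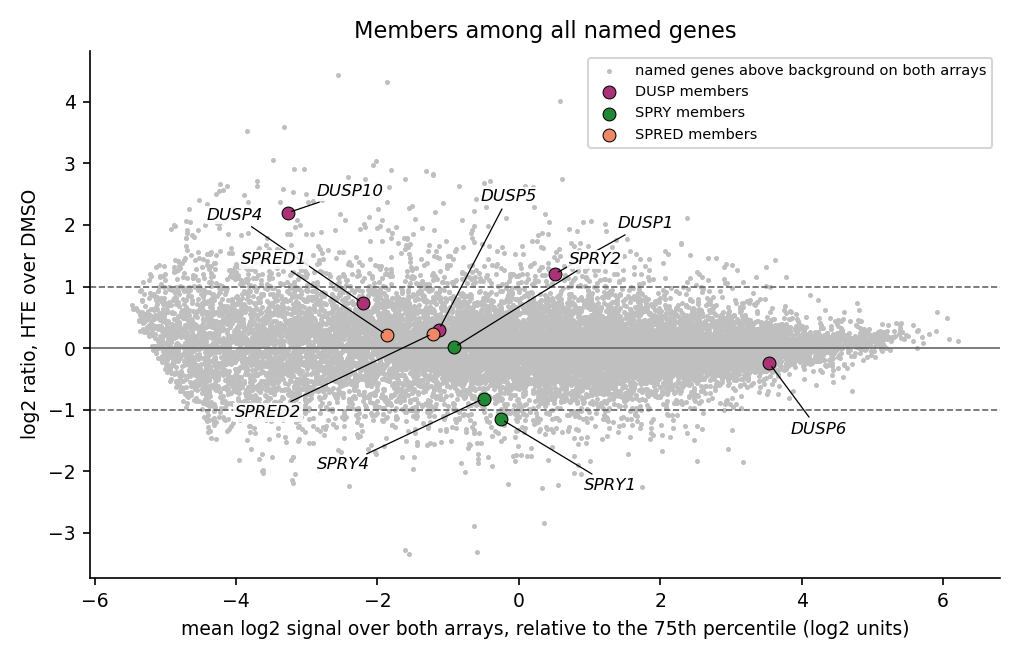
Log2 ratio of HTE over DMSO against the mean log2 signal of both arrays for named genes above background on both (grey, brightest probe of each), with the members in colour and dashed lines at 2-fold. DUSP10 and DUSP1 lie above the upper line and SPRY1 below the lower line, and SPRY2 lies at 0.01, between -0.16 and 0.03 under the scalings and background settings tried other than spike-in scaling (-1.07).

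The Sprouty genes were spread over more than 1 on the log2 scale. SPRY1 (NM_199327), an inhibitor of RAS activation downstream of FGF and VEGF receptors, had a processed signal of 5029 with DMSO and 2009 with HTE. Its level went from 0.32 to -0.83, a log2 ratio of -1.15 (2.22-fold lower) with a software error of 0.20. This is outside the range of the reference genes, and 1.83% of genes above background on both arrays had a lower ratio. The ratio ran from -1.09 with normexp correction to -1.32 without scaling, and was -2.24 with spike-in scaling. In the second brightest of the 4 groups by signal, which holds SPRY1 and DUSP1, 2.95% of genes were at least 2-fold lower and 3.33% at least 2-fold higher. Of the 2 RefSeq windows of SPRY1, the one at the second start held an ETS motif (CCGGAAG, in capitals), the core of a site for ETS factors that ERK can activate. It is shown because SPRY1 is the member that was past 2-fold lower (GRCh38.p14, plus strand, chr4:123398308-123398337, from 78 to 49 bases before that start).
SPRY1: gccctccgcagCCGGAAGggggccgcgggg
This motif was in 10.3% of all windows and in no other window of these genes. An AP-1 motif (TGANTCA) was in 7.71% of all windows and, among these genes, only in the window at a second start of SPRED2. The GC box was in 45% of all windows and in 9 of the 13 windows of these genes. Those 9 belong to 7 of the 8 genes, all except DUSP6.

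SPRY2 (NM_005842), which binds CBL and GRB2 and is a classical ERK-induced Sprouty, had signals of 2123 with DMSO and 1905 with HTE. The levels were -0.92 and -0.91, a log2 ratio of 0.01, which is smaller than the SD over replicate spots. Its sign changed with the settings, as it was -0.03 with normexp correction and -0.16 without scaling. Its log2 ratio and that of SPRY1 differed by 1.17, more than the software error of each.

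SPRY4 (NM_030964), a further inhibitor of the path from receptors to RAF, was measured by both of its probes as lower. The brighter probe had signals of 3782 with DMSO and 1903 with HTE and levels of -0.09 and -0.91. The log2 ratio was -0.82 (1.76-fold lower), below the 2-fold cutoff and, on this scale, outside the range of the reference genes. The size of this ratio rests on a correction for position on the array. The spot lies near a corner, in row 22 and column 5, where the software multiplied the background-subtracted signal by 1.39 on the DMSO array and by 1.13 on the HTE array. Without that correction the ratio was -0.52, and with normexp correction, which starts from signals not yet corrected for position, it was -0.43. The latter lies inside the range of the reference genes, which began at -0.50 under normexp. The mean over both SPRY4 probes was -0.44, but it takes the dimmer probe at its bound of -0.06. The measured ratio of that probe was -1.48, so the mean does not place SPRY4 inside the range. Spots around that of the brighter probe had a median ratio of 0.23, and subtracting this gave -1.05, past 2-fold. The dimmer probe had a signal of 111.4 with DMSO and of 35.5 with HTE, the latter not well above background, so that only a bound can be given. It was at least 1.05-fold lower, and the ratio of the measured values was -1.48 with a software error of 0.86.

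SPRED1 (NM_152594) and SPRED2 (NM_181784) bring the RAS inactivator neurofibromin to the membrane and so limit RAS. SPRED1 had signals of 1022 with DMSO and 1052 with HTE, levels of -1.98 and -1.76 and a log2 ratio of 0.21. SPRED2 had signals of 1593 and 1665, levels of -1.34 and -1.10 and a log2 ratio of 0.24. Both ratios were within the range of the reference genes and close to the software error of 0.21. Without scaling they were 0.04 and 0.06, and with spike-in scaling they were -0.87 and -0.85.

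Ordered by log2 ratio, DUSP10 was followed by DUSP1, DUSP4, DUSP5, SPRED2, SPRED1, SPRY2, DUSP6, SPRY4 and SPRY1. DUSP10 and SPRY1, at the ends of this order, differed by 3.35 on the log2 scale. The step from DUSP10 to DUSP1 (0.99) was wider than their software errors of 0.23 and 0.20. It depended on the background treatment, as these genes were at 1.67 and 1.14 with normexp correction. The step from DUSP1 to DUSP4 was 0.47. The step from DUSP6 to SPRY4 was 0.57 but depended on the treatment of SPRY4, as these genes were at -0.25 and -0.52 without the correction for position and at -0.21 and -0.43 with normexp. DUSP5, SPRED2 and SPRED1 lay within 0.08 of each other and are not separated by these arrays. The step from SPRY4 to SPRY1 was 0.33, and after subtraction of the neighbouring spots these genes were at -1.05 and -1.19. DUSP1, DUSP4, DUSP10, SPRY1 and SPRY4 were outside the range of the reference genes and the other 5 genes inside it, but SPRY4 was inside with normexp correction. The share of all genes outside this range was not counted. At 1.5-fold, a wider limit than the range, 12.4% of all genes were higher and 10.5% lower. On the DMSO array every reference gene gave more signal than every member except DUSP6, so the range comes from brighter genes.

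The order does not depend on a scaling factor common to all probes, but the signs do. Without scaling each ratio of a probe above background on both arrays was 0.17 lower, and DUSP1 was at 1.03 and DUSP10 at 2.03, still past 2-fold. The E1A RNA added before labelling gave more signal with HTE than with DMSO, and scaling to it lowered each ratio by 1.08 and the median of all genes to -1.08. Under it 2 members stayed above 0, DUSP10 (1.11) and DUSP1 (0.12), and 4 members (SPRY1, SPRY4, DUSP6 and SPRY2) were at least 2-fold lower.

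**Figure D4:**
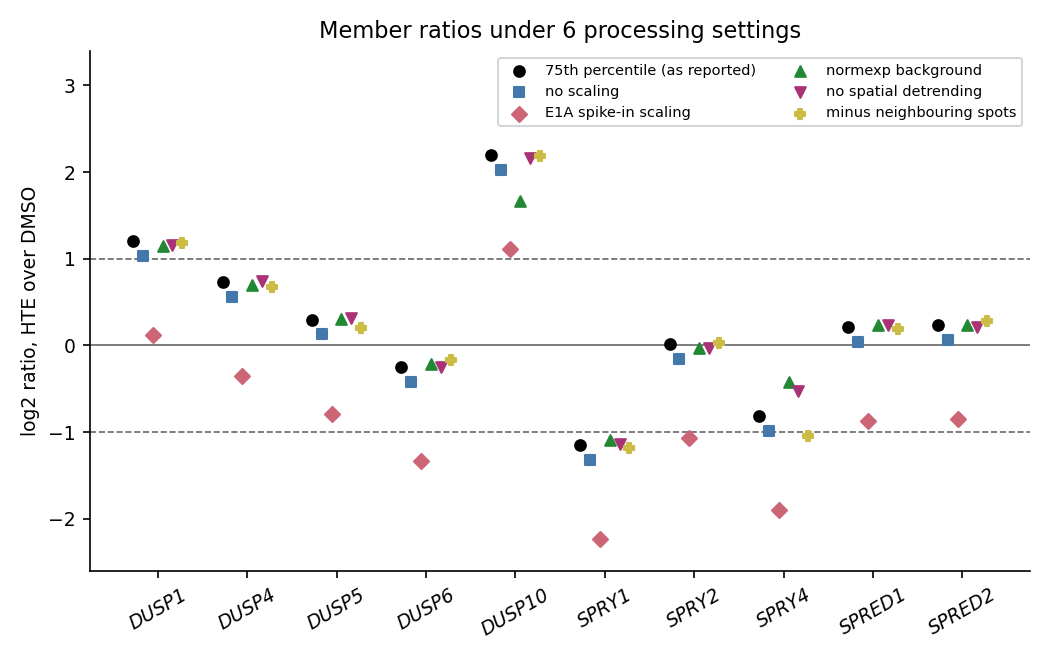
Log2 ratio of HTE over DMSO of each gene at its brightest probe under 6 processing settings, with dashed lines at 2-fold. Spike-in scaling (red diamonds) shifts every gene down by 1.08 and leaves DUSP10 (1.11) and DUSP1 (0.12) above 0, and SPRY4 spans -0.43 to -1.05 among the settings that do not change the scaling.

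Of the other MAP kinase phosphatases, DUSP7 was not above background and 3 of the 4 measured genes were higher (2 with spike-in scaling). DUSP8, which acts on JNK and p38, had the largest log2 ratio at its brightest probe, 2.89, and its other probes gave 0.71 and 0.91. DUSP2, an inducible nuclear phosphatase, had a ratio of 1.15 (0.98 without scaling, 0.85 with normexp correction and 0.07 with spike-in scaling). DUSP16, a JNK phosphatase (0.72, -0.36 with spike-in scaling), and DUSP9, a cytoplasmic ERK phosphatase (-0.83), were named after their values were seen. Of 14 atypical dual-specificity phosphatases, which lack the MAP kinase docking domain, 11 were measured and 7 were higher, with DUSP3 past 2-fold (1.03, 0.95 with scaling to the median and -0.05 with spike-in scaling). Of 17 other inhibitors of receptor and RAS signalling, 13 gave a ratio and 10 were higher (7 without scaling and none with spike-in scaling). None was past 2-fold at its brightest probe, although 5 were at least 2-fold lower with spike-in scaling and 1 of the 5 probes of NF1, the gene of neurofibromin, named after its values were seen, was at 1.11. They ran from LRIG3 (-0.57), which limits receptor signalling, to the ubiquitin ligase CBLB (0.94, -0.14 with spike-in scaling).

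Of 18 adaptors, RAS proteins and kinases between the receptor and ERK, 16 gave a ratio, 9 higher and 7 lower, with a median of 0.12 (-0.07 without scaling and -0.98 with spike-in scaling). Only SOS1, the exchange factor that loads RAS with GTP, was past 2-fold (1.15, and 0.70 at its other probe). It was at 0.98 without scaling and at 0.06 with spike-in scaling. In the p38 and JNK cascade 8 of 15 measured genes were higher. MAP2K6, a kinase that activates p38, had a ratio of -1.80. MAPK11, which encodes p38β, had a ratio of 1.60 at its brighter probe and of -0.31 at the other, so its direction is not settled. Of the 15 measured substrate kinases and factors, 14 gave a ratio and 8 were higher (4 without scaling), and RPS6KA3, an ERK-activated kinase, was lower at both probes (-1.07 and -0.61).

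Upstream, 7 of 11 growth factor receptors were lower and 4 higher (none with spike-in scaling), with a median of -0.12 and none past 2-fold at its brightest probe. The lowest was FGFR1 (-0.90, and -1.09 at its other probe) and the highest INSR, the insulin receptor (0.73, -0.36 with spike-in scaling). FGFR3, named after its values were seen, was at -0.90, and at -1.12 at its other probe. Without scaling FGFR1 and FGFR3 were past 2-fold lower at both probes (-1.07 for each at the brighter). Of 12 ligands 8 were measured, and the EGF receptor ligands EREG (1.66) and AREG (1.53, and 1.85 at its other probe) were past 2-fold, both above 0 under every scaling tried, with EREG at 0.97 after normexp correction. Of 12 other transcripts that depend on ERK, 7 were higher and 5 lower (4 and 8 without scaling), with a median of 0.12. FOS, an AP-1 subunit, was at 1.41 (0.85 with normexp correction) and CCND1, cyclin D1, at -1.14. The ETS factor ETV1 was at 1.29 at its brightest probe, with 1.15, -0.60 and at least 0.88 at the others.

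**Figure D5:**
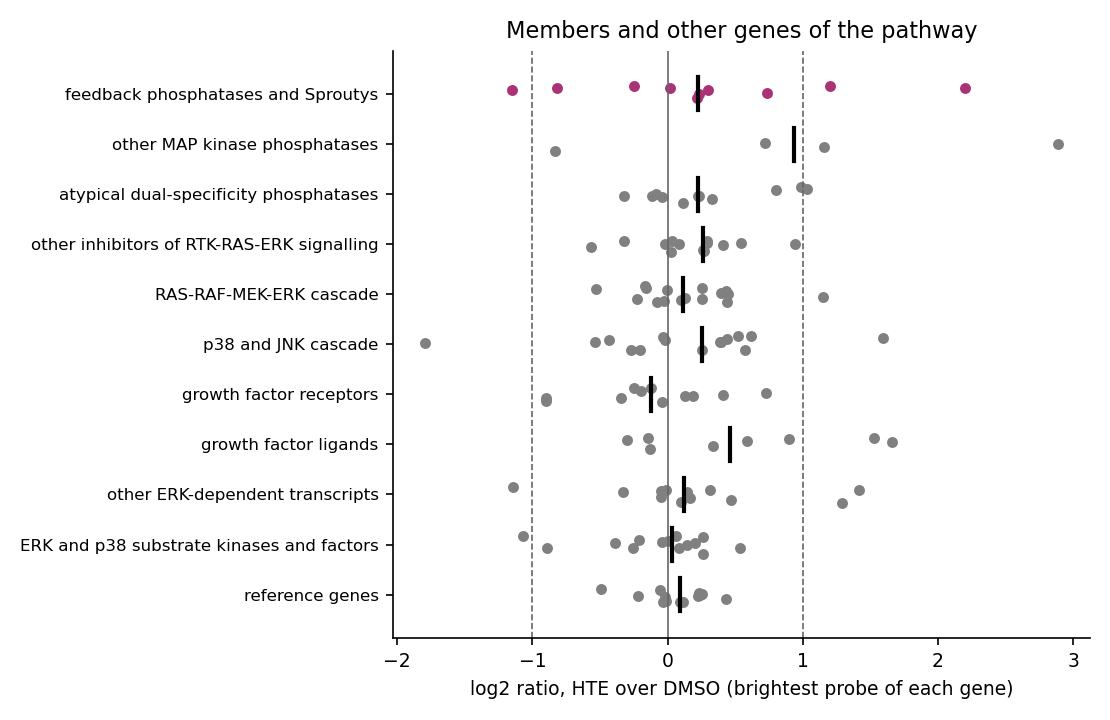
Log2 ratio of HTE over DMSO (75th percentile scaling) of the feedback phosphatases and Sprouty genes (purple) and of other genes of the pathway and reference genes (grey), 1 point per gene at its brightest probe, with black bars at the medians and dashed lines at 2-fold. Points for DUSP23 and FGF21 are lower bounds, and the members span -1.15 to 2.20 against -0.49 to 0.43 for the 13 reference genes.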

How the data were processed

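The authors deposited the Agilent Feature Extraction output of each array, whose processed intensities had been background-subtracted and corrected for position but not scaled between arrays (version 11.5.1.1 per the file headers, 10.7 in the submitters' processing notes). Spots flagged as controls or outliers were dropped, log2 was taken, and each array's 75th percentile, 4020.0 for DMSO and 3570 for HTE, was subtracted. Replicate spots were averaged. A probe counted as above background where 0.5 or more of its spots were so classed, and gave a bound where this held on a single array, set against whichever was higher on the dim array, its own signal or the lowest signal classed as above background. RefSeq accessions were matched to the GRCh38.p14 gene table for 28174 of 50599 probes. The file headers name GRCh37, so positions of probes and genes are not printed, and the coordinates of the promoter stretches are those of the RefSeq sequences in GRCh38.p14. The brightest probe stood for its gene, and the cutoff was 2-fold. Members and lists were chosen with earlier results of these data known. The code was tested on simulated data. Named in the text are all members and, from each of 12 lists, up to 4 genes past 2-fold or otherwise the highest and lowest. Alternatives were median, E1A spike-in, quantile or no scaling, normexp correction (offset 50) of median signals, other filters, probes and cutoffs, keeping outliers, and 2 chosen after seeing the data, namely signals not corrected for position and subtraction of the median ratio of spots within 5 rows and columns. Python 3.11.15 (pandas 2.3.3) and R 4.3.3 (limma 3.58.1) were used. Precision is limited by there being 1 array per group.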

Additional observations from a re-analysis of the deposited data

How the results depend on the processing

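No paired analysis was possible because there was 1 array per group. Scaling to the median gave a median log2 ratio of the members of 0.14, quantile normalization 0.17, and no scaling 0.053, with 1209 of all genes at least 2-fold lower. Spike-in scaling gave -0.86, with 2 member probes above 0, 1 member at least 2-fold higher and 4 lower, and 176 higher and 13492 lower genes in all. Over all genes, normexp correction gave 825 higher and 468 lower, the own value of a dim probe 1320 lower, no filter on dim probes 2390 higher and 1868 lower, and NM_ probes alone 700 and 397. A 1.5-fold cutoff gave 2 members lower and 2953 higher and 2505 lower genes in all, and a 3-fold cutoff gave 1 member higher and 0 lower, with 422 and 129 genes in all. After subtraction of the neighbouring spots, chosen after seeing the data, 2 members were at least 2-fold lower, since SPRY4 passed the cutoff. Of the genes past 2-fold 63.4% were higher, and 42.2% without scaling. The share also depended on dim probes, as it was 50.4% with their own values and 59.2% with probes above background on both arrays. The causes were not tested. Signal over background limits DUSP10 and the dimmer probe of SPRY4. It also limits listed genes past 2-fold that were dim with DMSO. Their DMSO levels were -5.53 for EREG and for FOS, -4.93 for DUSP2 and -4.43 for ETV1. The lowest DMSO spot classed as above background was at -5.91.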
